A study of Mus musculus with 12 samples.

Results

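The 4 genes Olah, Adgrg7, 2300005B03Rik and AA467197 were read from the 14533 genes counted in dorsal epidermal scrapings of mice lacking epidermal Pparg. They were chosen from the measured values themselves, as being among the largest rises in which the 6 Pparg-/-epi libraries all lay above the 6 WT libraries, and because no role in skin had been assigned to them. The size and the separation of their rise are therefore given as a description, with no p. The label does not hold for 2300005B03Rik, which RefSeq names Slurp2, a secreted protein of the Ly6/uPAR family made by keratinocytes.

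The study asked how loss of Pparg, a lipid-activated nuclear receptor, from the epidermis alters the transcriptome of unchallenged skin. Both groups were untreated C57BL/6 mice that carried floxed Pparg alleles. The Pparg-/-epi mice also carried a Cre transgene driven by the Cytokeratin14 promoter, which is active in basal keratinocytes of the epidermis and the hair follicle, and the WT mice did not. There were 6 mice of each genotype, aged 8 to 13 weeks, 3 females and 3 males among the WT mice and 4 females and 2 males among the Pparg-/-epi mice, with 1 library for each mouse. Non-lesional dorsal skin was frozen and scraped with a curette down to the superficial vessels, so the RNA came from epidermis, follicles and some superficial dermis. In such bulk samples, fewer cells of a type and less RNA per cell cannot be told apart.

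Olah encodes a thioesterase that releases medium-chain fatty acids from the fatty acid synthase, and is best known from lactating mammary gland. Adgrg7, also called Gpr128, is an orphan receptor of the adhesion G protein-coupled class, known from intestinal epithelium. Slurp2 belongs to a family of small disulfide-linked proteins, some of which act on nicotinic acetylcholine receptors of keratinocytes. AA467197, also called Nmes1, encodes a small mitochondrial protein related to the cytochrome c oxidase subunit Ndufa4, and its transcript also holds the hairpin of microRNA 147.

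In the coordinates of the deposited table (mm10), Olah lies on the minus strand of chromosome 2 from 3341988 to 3366569, with 8 exons. Adgrg7 is on the minus strand of chromosome 16, from 56724609 to 56795858, with 16 exons. 2300005B03Rik occupies 74742839 to 74746687 on the minus strand of chromosome 15, with 3 exons. AA467197 runs from 122637887 to 122641076 on the plus strand of chromosome 2, with 5 exons. The microRNA hairpin lies in exon 5 of AA467197, from 122640803 to 122640881. The counts of AA467197 are counts of the host transcript, and the mature microRNA was not measured here. Only the 5′ arm is shown, because the reference used listed no mature sequence for the 3′ arm. The seed of the 5′ arm, bases 2 to 8, is in capitals (RefSeq, GRCm38.p6, chr2:122640814-122640837, plus strand).
mmu-miR-147-5p: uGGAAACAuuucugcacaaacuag
Of the 1679 mature microRNAs in the RefSeq table, 0 others shared this seed.

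The shared rise of the 4 genes was part of how they were chosen. Promoter windows in RefSeq, from 250 bases before to 50 bases after each start, were searched on both strands for 6 motifs. A window was available for 3 of the 4 genes, all but 2300005B03Rik. The AP-1 letters TGANTCA were found in Olah and AA467197 and in 7.81% of all 32851 windows. The STAT-type letters TTCNNNGAA were found in Adgrg7 and in 8.3% of windows. The matches, in capitals and read on the strand of each gene, began 115 bases before the start of Olah (chr2:3366678-3366684), 73 before that of AA467197 (chr2:122637814-122637820) and 16 before that of Adgrg7 (chr16:56795866-56795874).
Olah: ttgtcaaggTGAATCAtctgaggca
AA467197: cacgtgagtTGACTCAgtgcgacgc
Adgrg7: gtttccttTTCTGAGAAcccttgtc
The NF-kB motif (in 4.51% of windows), the PPAR response element (0.0396%), CCAAT (37.4%) and TATAAA (13.6%) had no match in the 3 windows. A match is a run of letters and not a measured binding site.

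WT libraries totalled 10120840 to 16947632 counts and Pparg-/-epi libraries 11272135 to 18851255. Counts scaled to library depth are given as CPM, and 3 counts corresponded to 0.156 to 0.32 CPM. The RNA integrity number (RIN) had a maximum of 8.6 in both groups, with minima of 5.9 (WT) and 5.7 (Pparg-/-epi). Counts over the whole Pparg gene did not check the deletion, which removes only part of it: Pparg averaged 4.16 ± 5.23 CPM in the controls and 3.91 ± 2.06 CPM in the knockouts (SD, n = 6 each). WT replicate 2 stood apart, with the highest levels of follicle and sebaceous genes among the WT libraries, and several values are given with and without it.

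Olah was nearly silent in WT scrapings. Its 6 WT libraries held 12, 11, 2, 1, 0 and 2 counts, and 4 of the 6 were at or below 3 counts. The Pparg-/-epi libraries held 240, 117, 180, 86, 138 and 127 counts. Scaled to depth, Olah averaged 0.293 ± 0.31 CPM in the controls and 10.2 ± 2.46 CPM in the knockouts (SD, n = 6 each). The groups did not overlap, and the lowest Pparg-/-epi library was 9.25 times the highest WT library. The fitted difference was 5.01 on the log2 scale (SE 0.57), or 32.3-fold. Olah was also the most even of the 4 genes among Pparg-/-epi mice, the highest library being 1.76 times the lowest.

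Adgrg7 was as low in WT skin and far more variable after loss of Pparg. WT libraries held 2, 5, 0, 7, 6 and 7 counts, and Pparg-/-epi libraries 253, 124, 304, 43, 74 and 68. The means were 0.296 ± 0.2 CPM and 9.2 ± 5.52 CPM (SD, n = 6 each). The lowest Pparg-/-epi library, replicate 10 at 3.58 CPM, was still 7.54 times the highest WT library. The fitted difference was 4.88 on the log2 scale (SE 0.56), or 29.5-fold, while the Pparg-/-epi libraries themselves spanned 5.15-fold. Replicates 7, 8 and 9 were the highest, at 13.2, 7.52 and 18.4 CPM, and these are the mice with the breeding numbers 192 and 195; the others had 222 and 225.

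2300005B03Rik (Slurp2) was the one member with clear expression in every WT library. Its WT values were 8.95, 2.23, 2.13, 0.941, 3.24 and 1.32 CPM, and its Pparg-/-epi values 48.8, 29.5, 49.7, 72.2, 61.9 and 64.3 CPM. WT replicate 1 was the highest control, and the lowest Pparg-/-epi library was 3.29 times that value. The means were 3.14 ± 2.96 and 54.4 ± 15.1 CPM (SD, n = 6 each), and the fitted difference was 4.10 on the log2 scale (SE 0.49), or 17.2-fold. Replicates 7, 8 and 9, the highest for Adgrg7, were here the lowest of the Pparg-/-epi libraries. Over the 6 of them the relation between the 2 genes did not pass a test (r = -0.42, rho = -0.77, exact permutation p = 0.438 and 0.103, adjusted p = 0.952; r = -0.95 without 2 mice).

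AA467197 (Nmes1) had 1 WT library far from the rest. WT replicate 2 held 101 counts (5.36 CPM), and the other WT libraries held 8, 0, 2, 5 and 6. The Pparg-/-epi libraries held 311, 314, 604, 176, 153 and 242 counts, or 13.8 to 36.6 CPM. The lowest of them was 2.58 times WT replicate 2. The means were 1.13 ± 2.08 and 20.2 ± 8.46 CPM (SD, n = 6 each). The fitted difference was 4.06 on the log2 scale (SE 0.83), or 16.7-fold, and became 6.02 without WT replicate 2.

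**Figure D1:**
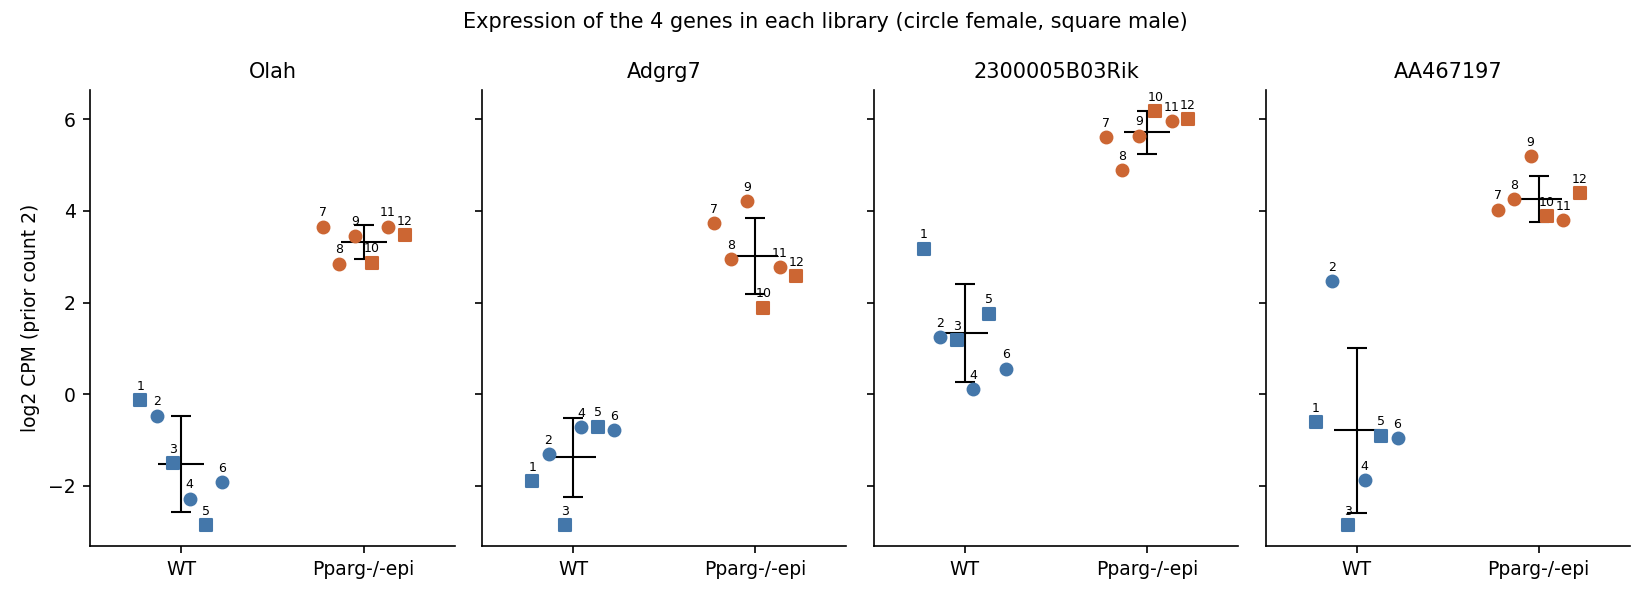
Each point is 1 library, with its replicate number, on a log2 CPM scale (prior count 2); circles are females, squares males, and the bars give the mean and SD of 6 libraries. In every panel the Pparg-/-epi points lie above the WT points, most closely for AA467197, where WT replicate 2 reaches 2.46 and the lowest Pparg-/-epi library is at 3.80.

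Lack of overlap was part of how the genes were chosen, and 574 of the 14533 genes (3.95%) had all 6 Pparg-/-epi libraries above all 6 WT libraries. In either direction, 7.9% of genes did not overlap. Genes were called altered when they differed by 0.6 or more on the log2 scale, up or down, with the adjusted p below 0.05 (edgeR quasi-likelihood test); 10.3% of genes were altered, 754 (5.19%) being higher and 5.08% lower. Among the 398 (2.74%) that met both conditions, Olah ranked 3, Adgrg7 4, 2300005B03Rik 8 and AA467197 10 by fold change. Just above Olah stood Fcer1a (6.83), the IgE-binding receptor chain of mast cells, and Igfl3 (5.56). Between Adgrg7 and 2300005B03Rik were Stra6 (4.46), a retinol transporter, Stfa3 (4.25), a cysteine protease inhibitor, and Tph1 (4.11), the serotonin-forming enzyme of mast cells. Mrgprx1 (4.10) lay next to 2300005B03Rik, and Ppapdc1a (4.05) and Gsdma2 (4.04) came just after AA467197. Both conditions use the contrast on which the 4 genes were chosen, so that their place among these genes is part of the choice. Ranked by the ratio of the lowest Pparg-/-epi to the highest WT library, the 4 genes stood at 2, 4, 13 and 29.

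**Figure D2:**
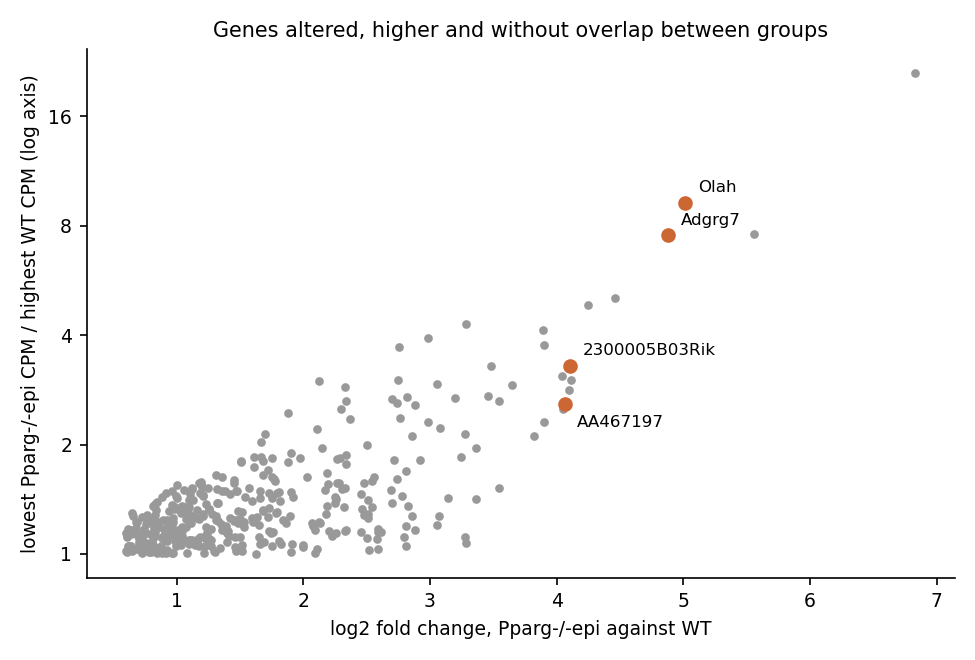
Each point is 1 of the 398 genes altered, higher and without overlap, with its log2 fold change on the x axis and the ratio of its lowest Pparg-/-epi to its highest WT library on a log axis. Olah (5.01, ratio 9.25) and Adgrg7 (4.88, ratio 7.54) lie near the top, and 2300005B03Rik (3.29) and AA467197 (2.58) lower.

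Compared per length, as RPKM (counts scaled to library depth and exon length), 2300005B03Rik was the most abundant of the 4. Its median was 120 RPKM in Pparg-/-epi libraries, above 96.6% of all genes, against 4.7 RPKM and 38.6% in WT libraries. AA467197 followed with a median of 27.5 RPKM (81.2%) against 0.604 RPKM (11.4%). Olah reached 7.23 RPKM (47.7%) from 0.112 RPKM (1.4%), and Adgrg7 2.63 RPKM (26.7%) from 0.131 RPKM (1.75%). Every counted gene exceeded 0.5 CPM in 6 or more mice, so genes low in both groups are absent. Adgrg7 (at most 0.474 CPM in WT libraries), Olah and AA467197 met that limit through their Pparg-/-epi libraries. Their low WT percentiles hold only among the genes kept and partly follow from that limit. In Pparg-/-epi libraries the RPKM of 2300005B03Rik (63.5 to 156) lay above that of AA467197 (21.6 to 57.2), and that of AA467197 above Olah (4.7 to 8.28). The ranges of Olah and Adgrg7 (1.32 to 6.82) overlapped, but within each Pparg-/-epi library Olah was the higher. They were closest in replicate 9, at 7.23 and 6.82 RPKM. A large fold change thus stood beside a modest level for Olah and Adgrg7.

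Sex, RIN and age were not used in choosing the genes and could be tested. None of the 16 coefficients (sex, RIN, age and genotype by sex, for 4 genes) passed an adjusted p of 0.05 in the edgeR quasi-likelihood test, and 5 were under 0.05 unadjusted. AA467197 came nearest, with 0.80 per RIN unit on the log2 scale (SE 0.29, adjusted p = 0.075); the edgeR likelihood ratio test gave 0.91 (adjusted p = 0.0214). 2300005B03Rik was 1.07 higher in males (SE 0.37, adjusted p = 0.279), and Adgrg7 differed by -1.14 (SE 0.47, adjusted p = 0.296). Per week of age, 2300005B03Rik differed by -0.30 (SE 0.08, adjusted p = 0.999), with the smallest unadjusted p of the 16, and Adgrg7 by 0.30 (SE 0.13, adjusted p = 0.999). Within 1 sex the groups could not overlap, given how the genes were chosen, and the ratios of lowest knockout to highest control only describe the distance. Among females they were 12.2 for Olah, 14.2 for Adgrg7, 13.2 for 2300005B03Rik and 2.58 for AA467197, and among males 9.33, 7.54, 7.19 and 28.6.

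The genes around each member show whether a rise extended along the chromosome. Olah stood alone: Nmt2, Rpp38, Dclre1c and Suv39h2, the nearest counted genes, differed by 0.02 to 0.23 on the log2 scale and none was altered. Around Adgrg7, Abi3bp, Tfg and Tmem45a were not altered, and Tmem45a2, 241 kb away, was lower by -3.26 (SE 0.63, adjusted p = 0.00458). Next to 2300005B03Rik, Slurp1, its secreted relative 14.8 kb away, rose from 20.5 ± 10.4 to 72.7 ± 25.2 CPM (SD, n = 6 each). That difference was 1.83 on the log2 scale (SE 0.35, adjusted p = 0.00453, edgeR quasi-likelihood test), although the groups overlapped. Lynx1, 1.17 kb from 2300005B03Rik, was at 0.06 (SE 0.18, adjusted p = 0.853), Ly6d at 0.20 and Them6 at 0.32. Of the neighbours of AA467197, Gatm, Spata5l1 and Slc30a4 were not altered, and Bloc1s6 differed by -0.34 (SE 0.09, adjusted p = 0.028), under the fold limit.

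**Figure D3:**
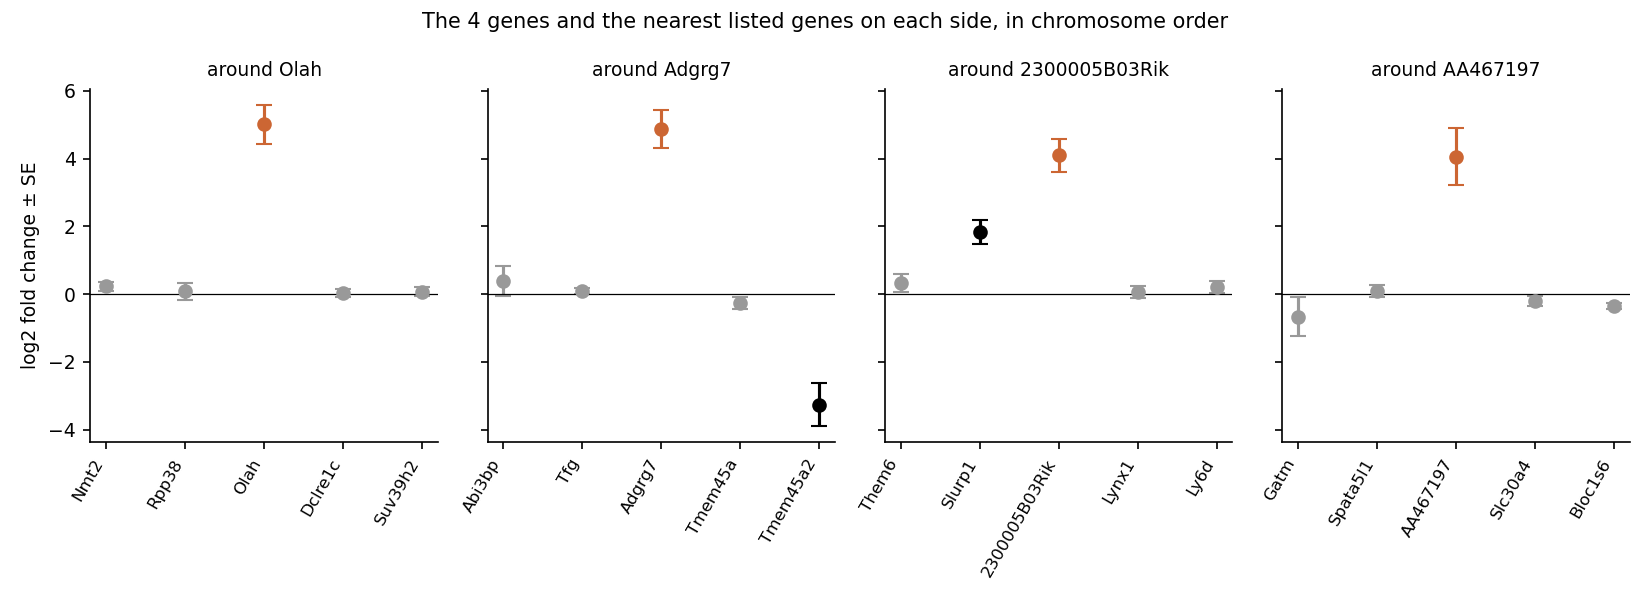
Points give the log2 fold change with its SE (n = 6 in each group) for each of the 4 genes, in orange, and the nearest genes on either side in chromosome order; black marks altered neighbours and grey those not altered. Slurp1 (1.83) and Tmem45a2 (-3.26) are the altered neighbours.

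Reads shared with other genes could blur such values. Of the 75-base stretches in their transcripts, 0% of those of Olah, Adgrg7 and 2300005B03Rik occurred in another gene, and 0.408% of those of AA467197, all in the microRNA 147 hairpin that it contains.

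Genes of fatty acid synthesis, the pathway of Olah, were lower or not altered. Of 19 measured genes of fatty acid synthesis, 7 were altered and lower and 0 higher, with a median log2 fold change of -0.31 against -0.011 for all genes. Scd1, the stearoyl-CoA desaturase, fell by 2.06 on the log2 scale, Acacb, an acetyl-CoA carboxylase, by 1.99, and Elovl6, a fatty acid elongase, by 1.57. Fasn, the synthase on which Olah acts, fell from 244 ± 62.9 to 158 ± 18.2 CPM (log2 difference -0.62, SE 0.16, adjusted p = 0.0176, SD with n = 6 each). With the 7 females alone, 2 of these genes were altered. Sebaceous gland genes were lower in the same libraries, with 7 of 12 altered and lower, and their part in these values was not tested. Of 17 thioesterases other than Olah, 0 were altered, 3 had an unadjusted p under 0.05, and the likelihood ratio test called 1.

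Adhesion G protein-coupled receptors other than Adgrg7 changed in both directions: of 24 measured, 4 were altered and higher and 4 lower (median 0.28). Adgrg5 rose by 1.51 and Adgre5, a leukocyte receptor, by 1.36, whereas Adgre4 fell by 1.53 and Adgrv1 by 1.36. Scaling by total counts gave 2 higher and 4 lower. Without WT replicate 2, 9 were higher and 4 lower, and in the 7 females 1 and 2.

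In the Ly6/uPAR family, 2 of 21 measured genes were higher and 3 lower (median 0.20). Psca rose by 2.06 and Slurp1 by 1.83. Lypd1 fell by 1.98, Cd59a, an inhibitor of complement, by 1.67 and Ly6g6e by 0.82. Without WT replicate 2, 4 were higher and 3 lower.

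Among 15 genes of cytochrome c oxidase and the Ndufa4 family, to which AA467197 is related, 2 were higher and 0 lower (median 0.18). Ndufa4l2 rose from 152 ± 20.5 to 285 ± 54.6 CPM (log2 difference 0.91, SE 0.14, adjusted p = 0.00116, n = 6 each), and Cox4i2 by 1.46. Ndufa4 itself was at 0.45 (SE 0.22, adjusted p = 0.21). In the 7 females 0 were called. An NF-kB list was drawn up because AA467197 is known as an inflammatory gene. It holds subunits, feedback genes and a few others such as Icam1. Of its 15 measured genes 5 were higher, against 5.19% of all genes, and 0 lower (median 0.33). Bcl3 rose by 1.91, Icam1 by 0.78, Tnip1 by 0.66, Nfkb2 by 0.63 and Nfkbiz by 0.62, and 1 was called in the 7 females.

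**Figure D4:**
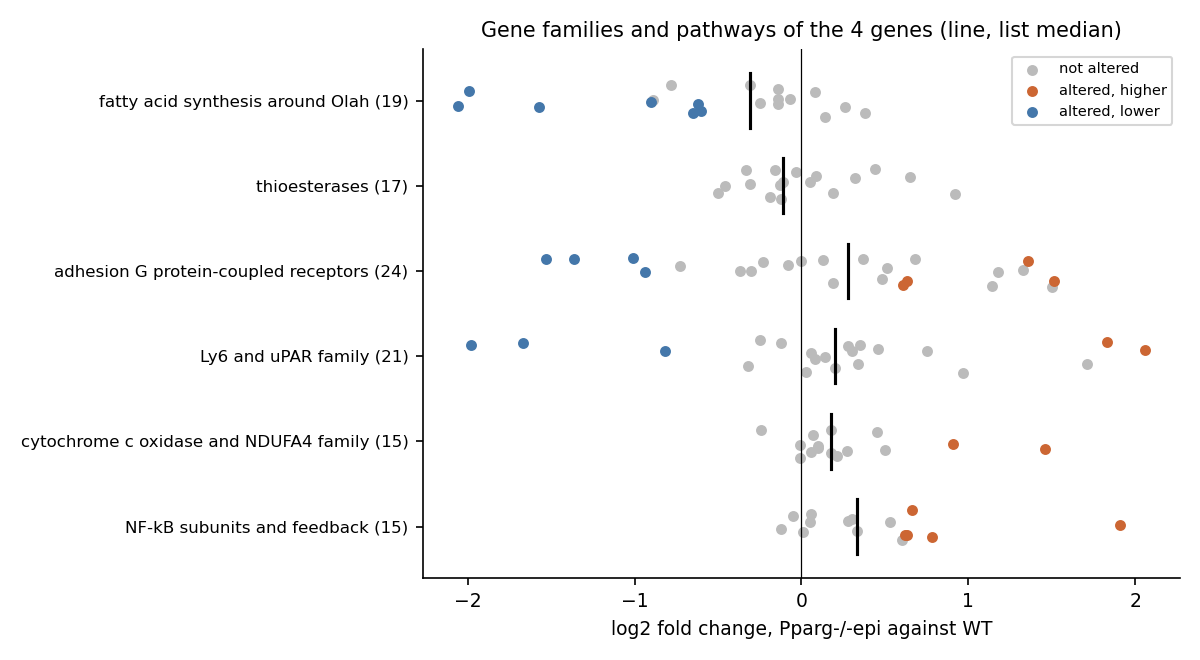
Each point is 1 gene of a list, placed at its log2 fold change, with the number measured in brackets and the list median as a line; the 4 genes themselves are not plotted. Altered genes of fatty acid synthesis lie only on the lower side (7 of 19), and those of the NF-kB list only on the higher side (5 of 15).

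The 4 genes were then set against follicle, stress keratinocyte and immune genes in each library. The gene lists were chosen with earlier results of these data known, so their counts and levels only describe them. Of the stress keratinocyte genes, which mark injured or hyperproliferative epidermis, 20 of 23 were altered and higher (median 2.74), against 5.19% of all genes. Among them were Krt16 (2.92), S100a8 (2.74) and Krt6a (2.52). The mean log2 CPM of the stress keratinocyte list spanned 1.39 to 3.60 in the controls and 5.18 to 5.67 in the knockouts. Of the 14 pan-leukocyte genes 0 were altered, 1 had an unadjusted p under 0.05 and the likelihood ratio test called 0; without WT replicate 2, 2 were higher. Ptprc, the common leukocyte antigen, was at 67.3 ± 23.9 and 66.1 ± 8.7 CPM, and Cd207, which defines Langerhans cells, at 49.3 ± 13.5 and 49.4 ± 12.7 CPM (SD, n = 6 each). Of the 14 Langerhans and MHC class II genes, Epcam (1.04), an adhesion molecule, was higher and Ltc4s (-1.54) lower, and without WT replicate 2 the counts were 3 and 1. Of 14 T cell genes, Cd8a (2.20) and Gzmb (1.71) were higher and Cd3e (-0.75) lower, against 4 and 2 without WT replicate 2 and 0 and 0 in the 7 females. Of 6 neutrophil genes, Cxcr2 (3.55), S100a8 and S100a9 (2.74 each) were higher and Mmp9 (-1.0) lower, and 5 and 1 without WT replicate 2; S100a8 and S100a9 are also on the stress keratinocyte list. The mean log2 CPM of the neutrophil list was 0.36 to 1.65 in controls and 2.97 to 3.35 in knockouts. Only 6 of the 12 genes on that list were measured, and 2 of them were not altered. One was Csf3r, the marker chosen to define the list (1.14, SE 0.39, adjusted p = 0.0688, edgeR quasi-likelihood test). Mast cell genes were higher for 10 of 11 and lower for 1, and for 2 and 1 in the 7 females. The lower one over all mice was Hpgds (-1.6), at 223 ± 81.6 CPM in controls and 73.3 ± 24.4 CPM in knockouts (SD, n = 6 each). The summed CPM of the mast cell list did not rise, with a median of 289 in controls and 255 in knockouts. Of 29 growing follicle genes 0 were altered, with 0 under an unadjusted p of 0.05 and 0 by the likelihood ratio test, and 2 were higher without WT replicate 2. The mean log2 CPM of the growing follicle list ran from -0.68 to 4.48 among controls and from 1.75 to 5.62 among knockouts. Of 16 follicle stem cell and infundibulum genes 2 were higher, Krt79 (2.70) and Postn (2.00), and 4 lower, Fgf18 (-3.96), Krt15 (-1.74), Cxcl14 (-1.38) and Lgr6 (-1.19); without WT replicate 2 these counts were 6 and 4, and in the 7 females 0 and 3. The part of these cell types in the rise of the 4 genes was not tested.

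Within a genotype, 60 relations were computed over 6 mice each, with exact two-sided permutation tests. After Benjamini-Hochberg adjustment 0 passed, and 6 had an unadjusted p under 0.05. The smallest possible p was 0.00139 for r and 0.00278 for rho. Over 60 relations, 1 relation alone at that p could not pass, so the 0 is no sign that relations are absent. In Pparg-/-epi mice, 2300005B03Rik was lower where follicle stem cell and infundibulum genes were higher (r = -0.91, exact p = 0.00139, the smallest that these permutations can give, adjusted p = 0.0833; rho = -1.0, exact p = 0.00278). Without the 2 mice farthest from the median of the list, r was -0.97. Against growing follicle genes r was -0.94 (rho = -0.94, exact p = 0.00417 and 0.0167, adjusted p = 0.0833), and -0.69 without 2 mice. Replicates 7, 8 and 9 had the highest levels of the stem cell and infundibulum list among the Pparg-/-epi mice (6.18, 6.40 and 5.69 mean log2 CPM against 5.01 to 5.29). On the growing follicle list, replicates 7 and 8 were the highest, and replicate 9 (2.75) lay between 12 (2.72) and 11 (2.79). The same 3 mice had more endothelial signal (231, 292 and 238 summed CPM against 56.7, 115 and 70.6) and larger libraries (at least 15076618 counts against at most 12547089). Their RIN was 8.6, 8.5 and 7.7 against 7.7, 5.7 and 7.1, and their ages 12, 13 and 13 weeks against 8, 12 and 10. They were all female, as was replicate 11, and carried the breeding numbers 192 and 195. In 6 mice these cannot be told apart.

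In WT mice, AA467197 was higher where follicle stem cell and infundibulum genes were higher (r = 0.93, exact p = 0.00417, adjusted p = 0.0833). By rank, rho was 1.0 (exact p = 0.00278), and r was 0.85 without 2 mice. Apart from WT replicate 2 (101 counts), the WT values of AA467197 rest on 0 to 8 counts per library. With growing follicle genes r was 0.54 (rho = 0.31, exact p = 0.287 and 0.564, adjusted p = 0.833; 0.36 without 2 mice), and against sebaceous genes r was 0.83 (rho = 0.94, exact p = 0.0181 and 0.0167, adjusted p = 0.271; 0.53 without 2 mice). Adgrg7 in WT mice had r = -0.85 with stress keratinocyte genes (rho = -0.66, exact p = 0.0306 and 0.175, adjusted p = 0.367; -0.57 without 2 mice), on 0 to 7 counts per library. Olah in Pparg-/-epi mice had r = 0.81 with stress keratinocyte genes (rho = 0.77, exact p = 0.0542 and 0.103, adjusted p = 0.464; 0.64 without 2 mice). Relations with pan-leukocyte and Langerhans genes all had adjusted p of at least 0.833.

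**Figure D5:**
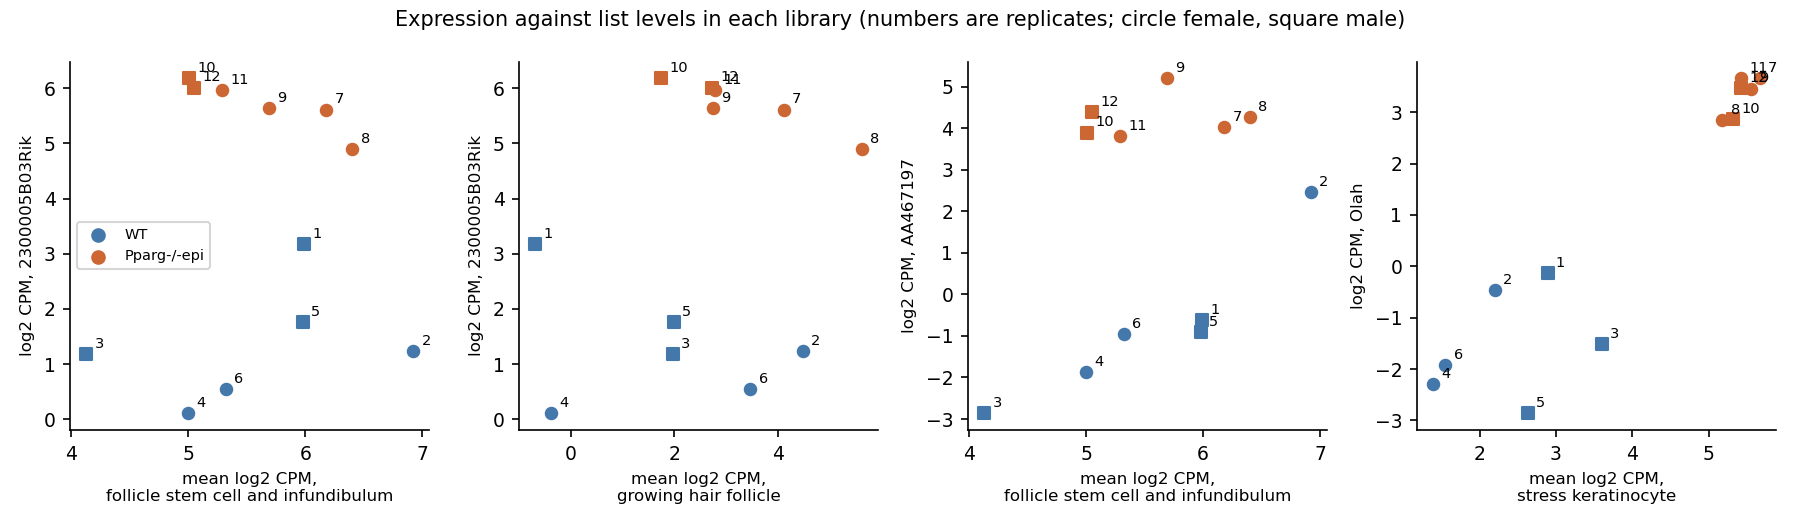
Each point is 1 library, with log2 CPM of a gene on the y axis and the mean log2 CPM of a gene list on the x axis; blue is WT, orange Pparg-/-epi, circles females and squares males. 2300005B03Rik is lower with higher follicle genes within the Pparg-/-epi group (r = -0.91 and -0.94), AA467197 is higher with the stem cell and infundibulum list within the WT group (r = 0.93), and Olah spans a narrow range of stress keratinocyte levels within the Pparg-/-epi group (5.18 to 5.67).

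As a description over 12 libraries, the genes most like each member were sought among 13799 genes with a mean of at least 1 CPM. Since both groups enter, an uncentred r mostly follows the genotype difference. By this measure Olah was closest to Il1f8 (r = 0.976), Calml3 (0.976) and Igfl3 (0.973), and Adgrg7 to Etv4 (0.962). 2300005B03Rik was closest to Stfa3 (0.984) and Lce1g (0.977), a cornified envelope gene, and AA467197 to the stress keratin Krt17 (0.987), Rgs4 (0.986) and Ehf (0.983). With the group means removed, the closest were Scrn1 (0.865) and Degs2 (0.864) for Olah, Bend3 (0.921) for Adgrg7, Rrbp1 (0.931) for 2300005B03Rik and Usp43 (0.971) for AA467197. In log2 CPM, AA467197 was at 2.46 in WT replicate 2 and at -2.86 to -0.62 in the other WT libraries. Its centred r may rest largely on that library, and none was computed without it. Lce1g stayed among the nearest 5 of 2300005B03Rik on both scales (0.89 centred). The members themselves were less alike once centred, with r from -0.37 for Adgrg7 and 2300005B03Rik to 0.52 for Olah and 2300005B03Rik.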

How the data were processed

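RNA was sequenced from epidermal scrapings of 12 mice, 6 in each group. Per the labels and the study's methods, the authors aligned reads to mm10 with STAR 2.5.2b and counted them on genes with featureCounts (Subread 1.5.1); the strand setting is not given in the sources used here. The deposited table holds raw counts. Blank rows (2800) were dropped, and no low-count filter was added, since each of the 14533 genes exceeded 0.5 CPM in 6 or more mice. The 2 libraries without a description were tied to their labels through the mouse identifiers.

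Counts were normalized with TMM and compared with the quasi-likelihood test of edgeR 4.0.16 (R 4.3.3), genotype the only term, with Benjamini-Hochberg adjustment over all genes. Altered meant a log2 difference of 0.6 or more in size with the adjusted p below 0.05. Log2 CPM used a prior count of 2. Scripts were tested on simulated data. Alternatives were the likelihood ratio test, DESeq2 1.42.0, total-count scaling, a minimum of 10 counts, covariates and a breeding block. Others were females alone, leaving out each mouse of the full set in turn, and ages from the study run table. Relations within a group were tested by exact permutation. Figures were drawn with matplotlib 3.10.9 (Python 3.11.15).

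The members and gene lists were chosen with earlier results of these data known. Named genes were the members, Pparg, and up to 6 altered genes a list with those closest to a member in function. Also named were the nearest 2 genes on each side, the genes most alike and those adjacent in rank. Not all are named, and Krt16, S100a8, Krt6a, Ptprc, Cd207 and Csf3r define their lists. Mice are separate animals, and intervals of counting error are not given.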

Additional observations from a re-analysis of the deposited data

Results flagged for a closer look

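The spread within each group of 6 libraries was examined for 20 sets of values, the CPM of the 4 genes and the levels of 6 gene lists in both groups, and 3 held 1 library far from the other 5. Chance would flag about 1 in 20 such groups if the values were normally distributed. The CPM of the 4 genes were examined without a log transform and the list levels on the log2 scale. That rate therefore need not hold for the genes. AA467197 was at 5.36 CPM in WT replicate 2, against at most 0.511 CPM in the other WT libraries. AA467197 was also at 36.6 CPM in Pparg-/-epi replicate 9, against 20.8 CPM in the next library. 2300005B03Rik was at 8.95 CPM in WT replicate 1, against 3.24 CPM in the next. Each of these values lay on its own group's side of the other genotype, as the choice of the genes required.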

How the results depend on the processing

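The number of altered genes, 1493 over all genes, was 651 in the 7 females and 18 in the 5 males (chosen after seeing the data), where fewer samples were tested, and 1116 to 2249 on leaving out 1 mouse, the highest without WT replicate 2. The direction of the 4 genes was fixed by their choice and is no sign of stability; with at least 10 counts required in every mouse, only 2300005B03Rik was fitted. On leaving out 1 mouse, Olah ranged from 4.78 to 5.51, Adgrg7 from 4.55 to 5.05, 2300005B03Rik from 3.91 to 4.78 and AA467197 from 3.79 to 6.02. In the 7 females 2300005B03Rik was at 4.96 and AA467197 at 3.42, and in the 5 males AA467197 was at 5.69. The likelihood ratio test called 1 of the sex, RIN and age effects in place of 0 (AA467197, RIN). With the ages of the study's run table in place of the labels' ages, AA467197 per week of age was 0.28 in place of -0.33, neither past the threshold. 2300005B03Rik per RIN unit was -0.03, and 0.02 with total-count scaling and 0.00 with the likelihood ratio test, none past the threshold. With a prior count of 0.5, 2 relations in place of 0 passed adjustment (adjusted exact p = 0.0417 each). These were AA467197 in WT and 2300005B03Rik in Pparg-/-epi mice, both with follicle stem cell and infundibulum genes. For 2300005B03Rik the exact permutation p stayed at 0.00139. For AA467197 it went from 0.00417 to 0.00139, so that 2 relations held the smallest possible p and both adjusted values fell. No paired analysis was possible because no replicate number occurs in both groups and breeding number 222, the only one shared, holds 1 mouse of each. At 0 to 12 counts in WT libraries, the fold changes of Olah and Adgrg7 rest on few reads. So does that of AA467197, at 0 to 8 counts in the WT libraries other than replicate 2 (101 counts).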
